A study of Mus musculus with 18 samples.

Results

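The 9 genes described here mark the thick ascending limb (TAL) and the distal convoluted tubule (DCT) of the nephron. They are Umod, Slc12a1, Slc12a3, Kcnj1, Kcnj10, Bsnd, Trpm6, Pvalb and Calb1, taken by gene name from a table of 29307 genes, with earlier results of these data known. All 9 passed the filter on low values that left 16342 genes for testing. The mRNA of whole kidney pieces was sequenced in 18 libraries, 3 in each of 6 groups.

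The IKKβ∆Tub mice carried floxed Ikbkb alleles (the gene of IKKβ) on both chromosomes together with the Pax8-rtTA and LC1-Cre transgenes, which delete IKKβ along the tubule when doxycycline is given. The control mice carried the same floxed alleles without these transgenes, and GEO's labels call the genotypes Ikkb knockout and WT. Both strains drank doxycycline from 6 weeks of age, followed by a wash-out period. Kidneys came from IKKβ∆Tub mice and control mice at baseline, and from mice of both strains at 2 d and 14 d after ischemia reperfusion (I/R) injury, in which the left renal pedicle was clamped. Pax8 drives deletion in tubular cells only, so the kidney pieces also held cells with intact IKKβ. Each library is labelled as a pool of mice, while the deposited key gives a single mouse for some, so the p-values measure the spread between these libraries.

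Depth ranged from 26285452 to 66317182 reads on genes at baseline and from 12306138 to 25933188 reads after I/R injury. The baseline libraries carry identifiers of another kind than the later ones, so whatever these identifiers stand for, depth and I/R injury cannot be told apart in the comparisons with baseline. Ikbkb, of which only a part is deleted, stood at 0.551, 0.426 and 0.376 in the IKKβ∆Tub libraries and at 0.765, 0.736 and 0.861 in the control libraries at baseline. At 14 d it stood at 0.843, 0.669 and 0.844 in IKKβ∆Tub and at 1.21, 1.11 and 1.13 in controls. At 2 d it stood at 0.856, 0.846 and 0.986 in IKKβ∆Tub and at 0.829, 0.855 and 1.29 in controls, so the libraries labelled control replicates 1 and 2 lay within or below the IKKβ∆Tub range. Vmn1r32, a vomeronasal receptor gene picked after its values were seen, was above 0 in every IKKβ∆Tub library and at 0 in every control library at baseline and 14 d, yet reached 0.0156 and 0.0235 in those same control libraries at 2 d. Y-linked expression was missing in 1, 0 and 3 IKKβ∆Tub libraries and in 3, 2 and 1 control libraries at baseline, 2 d and 14 d. The sex of the mice was thus not balanced between the strains, nor between the times within a strain. One library stands apart from its group: IKKβ∆Tub replicate 2 at 14 d. Values without these libraries follow the results at 2 d and 14 d for some of the 9 genes, not for all in each comparison.

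The TAL reabsorbs sodium chloride without water, and the DCT fine-tunes sodium chloride, calcium and magnesium under the control of WNK kinases. In both segments an apical cotransporter brings in salt, a basolateral potassium channel sets the membrane voltage and chloride leaves across the basolateral membrane with the help of the channel subunit barttin. The TAL lies in the outer medulla and cortex and the DCT in the cortex, regions that I/R injury reaches. The transporter mRNAs of both segments are widely used as markers of tubular differentiation.

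Promoters are shown because the members split into pairs that moved apart, Umod from Slc12a1 in the TAL and Trpm6 from Slc12a3 in the DCT. RefSeq windows on GRCm38.p6 that end at the base before the annotated start were found for 7 of the 9 genes, and Bsnd and Calb1 are named only. Both strands of each window of 250 bases were searched for AAGGTCA (bound by estrogen-related receptors), the HNF1 motif and GCCNNNGGC (TFAP2, which reads the same on both strands), motifs that do not contain one another. AAGGTCA and the HNF1 motif occurred in none of the 8 windows of these genes (Pvalb has 2), against 4.08% and 0.371% of all 32851 windows. GCCNNNGGC occurred in the windows of Slc12a3, Kcnj10, Trpm6 and Pvalb, starting 73, 70, 68 and 81 bases before the start (for Pvalb in its first window, and 164 bases before the start in its second), but not in those of Umod, Slc12a1 and Kcnj1. It was present in 13.7% of all windows. The Umod window is chr7:119479263-119479512 (minus strand), the Slc12a1 window chr2:125152350-125152599 (plus), the Slc12a3 window chr8:94328958-94329207 (plus) and the Trpm6 window chr19:18749480-18749729 (plus). Each is printed 5′ to 3′ with the GCCNNNGGC match in capitals where there is one.
Umod: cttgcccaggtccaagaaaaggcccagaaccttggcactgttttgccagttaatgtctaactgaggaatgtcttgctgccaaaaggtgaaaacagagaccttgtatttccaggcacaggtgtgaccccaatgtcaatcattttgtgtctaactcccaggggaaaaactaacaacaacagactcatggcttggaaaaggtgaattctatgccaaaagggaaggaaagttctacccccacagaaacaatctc
Slc12a1: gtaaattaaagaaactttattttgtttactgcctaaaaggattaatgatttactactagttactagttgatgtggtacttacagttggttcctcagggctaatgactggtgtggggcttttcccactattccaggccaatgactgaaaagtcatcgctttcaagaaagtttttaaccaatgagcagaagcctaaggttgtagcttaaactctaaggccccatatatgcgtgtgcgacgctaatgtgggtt
Slc12a3: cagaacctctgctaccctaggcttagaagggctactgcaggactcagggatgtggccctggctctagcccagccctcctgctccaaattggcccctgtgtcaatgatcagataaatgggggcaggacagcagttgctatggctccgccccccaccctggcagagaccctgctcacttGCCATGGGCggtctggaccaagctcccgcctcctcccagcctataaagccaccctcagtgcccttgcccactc
Trpm6: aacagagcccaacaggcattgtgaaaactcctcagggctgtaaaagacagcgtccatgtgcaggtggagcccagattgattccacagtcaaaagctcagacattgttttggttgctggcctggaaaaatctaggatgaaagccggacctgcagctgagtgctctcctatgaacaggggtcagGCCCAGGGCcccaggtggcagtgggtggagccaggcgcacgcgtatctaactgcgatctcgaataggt
GC content was 45.2% and 39.6% in the Umod and Slc12a1 windows and 61.2% and 54.4% in those of Slc12a3 and Trpm6, with a median of 52.4% over all windows. A match is a description of the letters and says nothing about binding.

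The level of a gene is its reads in units of the 90th percentile over the genes of that library, as deposited. Per kilobase of the longest coding transcript, the order at baseline was the same in IKKβ∆Tub and control kidneys for all 9 members. Umod, the most abundant protein of normal urine and made by the TAL, led with 12.1 to 19.2 per kb in IKKβ∆Tub and 15.2 to 18.8 per kb in controls (n = 3 each). Slc12a1, the apical Na-K-2Cl cotransporter NKCC2 of the TAL and target of loop diuretics, followed with 3.63 ± 1.11 per kb in IKKβ∆Tub and 4.14 ± 0.37 per kb in controls (SD, n = 3 each). Slc12a3, the apical Na-Cl cotransporter NCC of the DCT and target of thiazides, had 2.07 ± 0.60 per kb in IKKβ∆Tub and 2.43 ± 0.24 per kb in controls. Calb1, Kcnj1, Bsnd, Kcnj10, Pvalb and Trpm6 came after them. Among neighbours in this order, Slc12a3 and Calb1 overlapped in both strains, as did Calb1 and Kcnj1, while Bsnd and Kcnj10 overlapped in IKKβ∆Tub only, and the ranges of all other neighbours lay apart. Trpm6 was lowest, with 0.0360 ± 0.0208 per kb in IKKβ∆Tub and 0.0472 ± 0.0058 per kb in controls. The defining markers of both segments were thus present in every baseline library.

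**Figure D1:**
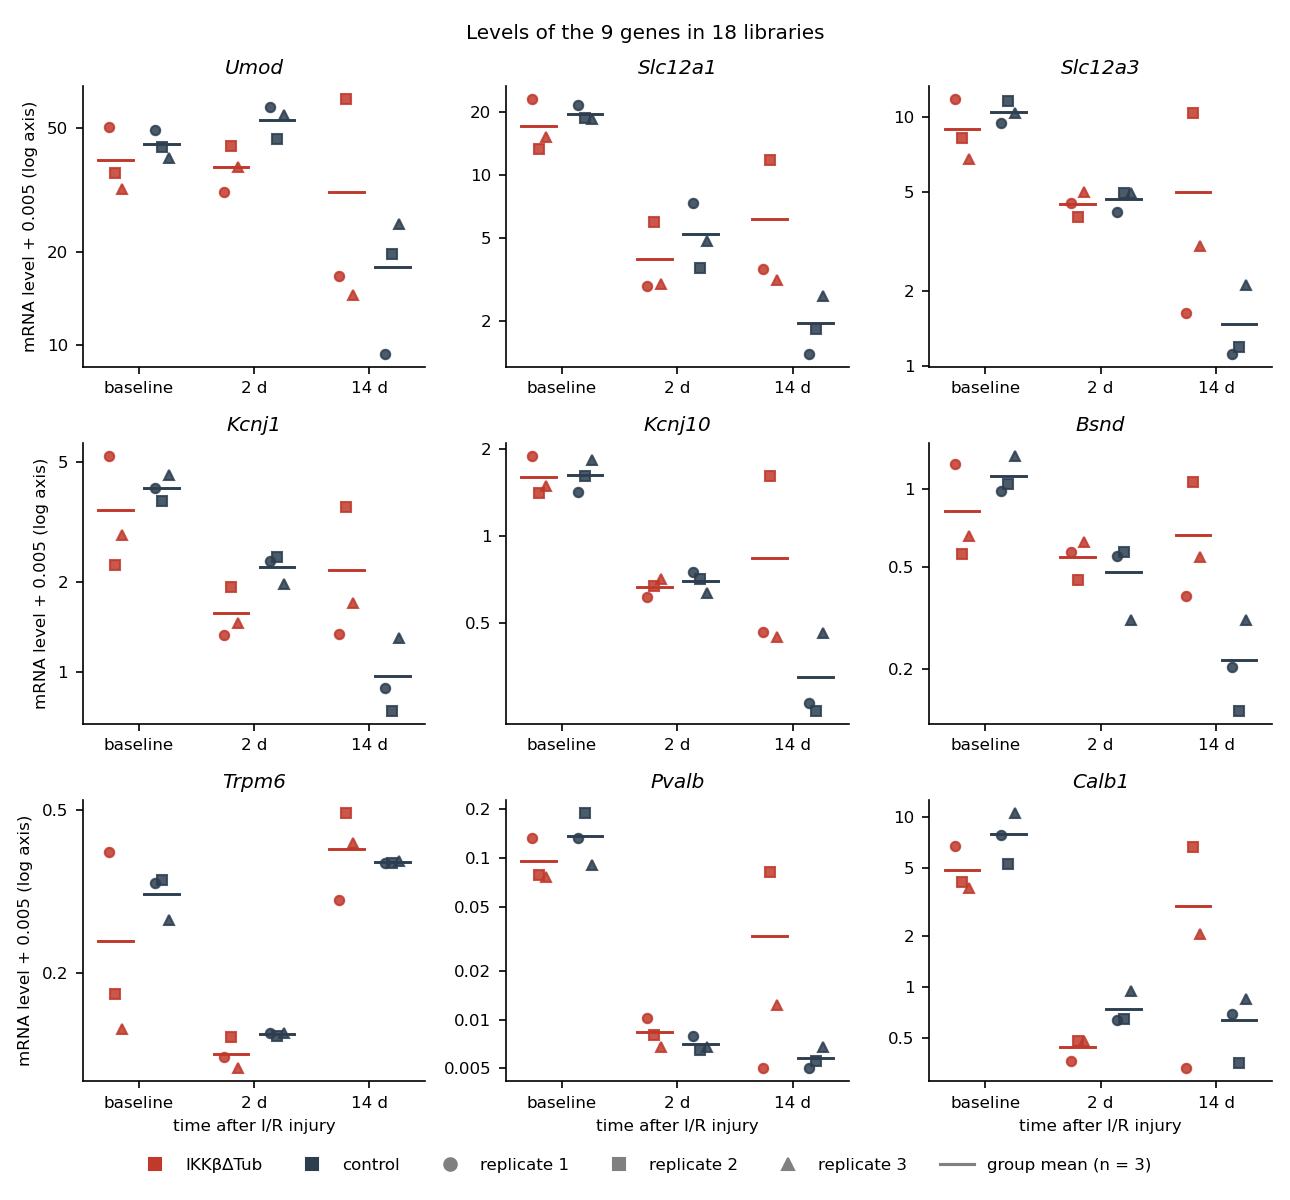
mRNA level of each gene (reads divided by the library's 90th percentile, plus 0.005, log axis) at baseline, 2 d and 14 d, with IKKβ∆Tub in red left of control in dark blue, a point per library shaped by replicate number and a bar for the group mean. At 14 d the square of IKKβ∆Tub replicate 2 lies above the other 2 IKKβ∆Tub libraries for every gene, for example at 62.0 for Umod against 16.7 and 14.5.

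At 2 d after I/R injury, most transcripts of the salt transport machinery were lower than at baseline in both strains, while Umod did not pass the test. Of the 9 genes, 6 fell and none rose in IKKβ∆Tub (limma, adjusted p under 0.05, all 18 libraries in 1 fit), where 50.2% of all genes tested were called (35.4% rose and 14.9% fell). In controls 7 of 9 fell and none rose, where 36.7% of all genes were called (25.4% rose and 11.3% fell). The median log2 fold change of the 9 genes was -1.06 in IKKβ∆Tub and -1.21 in controls, beside medians of 0.25 and 0.16 over all genes tested. Rescaling the libraries by median ratios moved these medians of all genes to -0.03 and 0.00.

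Slc12a1 stood at 23.2, 13.3 and 15.2 in IKKβ∆Tub and at 21.7, 18.7 and 18.6 in controls at baseline. At 2 d it stood at 2.92, 5.92 and 2.98 in IKKβ∆Tub and at 7.32, 3.57 and 4.82 in controls. Every library at 2 d lay below every baseline library, and the strains overlapped at both times. The log2 fold change was -2.16 (SE 0.43, limma adjusted p = 0.000613) in IKKβ∆Tub and -1.96 (SE 0.43, adjusted p = 0.00205) in controls, and the call held under all 32 settings in both strains. The settings count the main fit and each fit without 1 library, often a library outside the comparison, so they are not independent checks. Kcnj1, the apical potassium channel ROMK that recycles potassium for NKCC2, stood at 5.24, 2.27 and 2.85 in IKKβ∆Tub and 4.11, 3.72 and 4.51 in controls at baseline. At 2 d it was 1.33, 1.92 and 1.46 in IKKβ∆Tub and 2.34, 2.41 and 1.97 in controls. Its log2 fold change was -1.06 (SE 0.33, adjusted p = 0.0132) in IKKβ∆Tub and -0.88 (SE 0.33, adjusted p = 0.0443) in controls. The control call held under 16 of 32 settings and was lost with Y-linked expression as a covariate (adjusted p = 0.0812) and with the replicate block (adjusted p = 0.0641).

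Umod was not called at 2 d in either strain. It stood at 50.5, 35.7 and 31.7 in IKKβ∆Tub and at 49.3, 43.4 and 40.0 in controls at baseline, and at 31.1, 43.6 and 37.5 in IKKβ∆Tub and 58.1, 45.9 and 54.9 in controls at 2 d. The times overlapped within each strain. The log2 fold change was -0.06 (SE 0.46, adjusted p = 0.930) in IKKβ∆Tub and 0.26 (SE 0.46, adjusted p = 0.695) in controls, and ranged from -0.38 to 0.14 and from 0.04 to 0.39 over the settings.

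Bsnd, which encodes barttin, was called at 2 d in controls only, but the strain difference in this change was not called (interaction 0.76, SE 0.53, adjusted p = 0.506). It stood at 1.25, 0.553 and 0.655 in IKKβ∆Tub and 0.980, 1.04 and 1.34 in controls at baseline, and at 0.565, 0.440 and 0.615 in IKKβ∆Tub and 0.544, 0.565 and 0.304 in controls at 2 d. The IKKβ∆Tub libraries of both times overlapped and the control libraries did not. The log2 fold change was -0.52 (SE 0.38, adjusted p = 0.267) in IKKβ∆Tub and -1.28 (SE 0.38, adjusted p = 0.0143) in controls. Kcnj10, the basolateral potassium channel Kir4.1 of the DCT, fell by 1.26 on the log2 scale in IKKβ∆Tub and by 1.21 in controls, with values between 0.608 and 0.702 and between 0.631 and 0.742 at 2 d, below all baseline libraries, which reached 1.88 in IKKβ∆Tub and 1.82 in controls.

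Among the DCT genes, the calcium-binding proteins changed most. Calb1, which encodes calbindin-D28k and buffers calcium on its way through DCT and connecting tubule cells, stood at 6.69, 4.13 and 3.81 in IKKβ∆Tub and 7.84, 5.31 and 10.5 in controls at baseline. At 2 d it stood at 0.364, 0.480 and 0.480 in IKKβ∆Tub and at 0.640, 0.644 and 0.939 in controls. The 2 d mean was 0.0905 times the baseline mean in IKKβ∆Tub and 0.0940 times in controls, with log2 fold changes of -3.42 (SE 0.69, adjusted p = 0.000698) and -3.37 (SE 0.69, adjusted p = 0.00122).

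Pvalb encodes parvalbumin, a calcium buffer of the early DCT, and was counted at 255, 338 and 301 reads in IKKβ∆Tub and 522, 535 and 297 reads in controls at baseline. At 2 d, 5, 6 and 2 reads remained in IKKβ∆Tub and 4, 2 and 3 reads in controls. These counts lie near the limit of detection at this depth, and all lay below every baseline library. The log2 fold change was -3.50 (SE 0.65, adjusted p = 0.000358) in IKKβ∆Tub and -4.22 (SE 0.65, adjusted p = 0.000118) in controls, but with so few reads its size is set by the pseudocount, reaching -1.38 and -1.78 with a pseudocount of 0.05.

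Slc12a3 stood at 11.8, 8.24 and 6.76 in IKKβ∆Tub and 9.46, 11.5 and 10.4 in controls at baseline, and at 4.49, 3.96 and 4.98 in IKKβ∆Tub and 4.15, 4.94 and 4.95 in controls at 2 d. All 2 d libraries lay below all baseline libraries, yet limma did not call the change in either strain. Its log2 fold change was -0.96 (SE 0.45, adjusted p = 0.0821) in IKKβ∆Tub and -1.16 (SE 0.45, adjusted p = 0.0510) in controls, whereas edgeR on recovered reads gave adjusted p = 0.0325 and 0.0329. Trpm6, the magnesium channel of the DCT, stood at 0.120, 0.134 and 0.112 in IKKβ∆Tub and 0.138, 0.135 and 0.138 in controls at 2 d, against 0.389, 0.172 and 0.141 in IKKβ∆Tub and 0.326, 0.332 and 0.264 in controls at baseline. It fell by 0.78 (adjusted p = 0.0258) in IKKβ∆Tub and by 1.13 (adjusted p = 0.00412) in controls on the log2 scale. Leaving out the 2 d control libraries with doubtful labels leaves 1 control library at that time, so only effect sizes are given. All 7 genes that had been called in controls kept their sign. The log2 fold change was then -2.02 for Slc12a1, -1.85 for Bsnd, -4.28 for Pvalb and -3.01 for Calb1. It was -1.12 for Trpm6, -1.34 for Kcnj10 and -1.06 for Kcnj1.

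At 14 d after I/R injury every member but Trpm6 was lower than at baseline in control kidneys. In controls 8 of the 9 genes fell relative to baseline, where 49.7% of all genes tested were called (32.5% rose and 17.3% fell). The median log2 fold change was -2.44, beside 0.23 over all genes. In IKKβ∆Tub 4 of 9 fell and 1 rose, with a median of -1.19 beside 0.25 over all genes, of which 39.5% were called, 11.2% lower and 28.3% higher. Fewer cells of a segment and less of a transcript per cell cannot be told apart in whole kidney RNA.

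**Figure D2:**
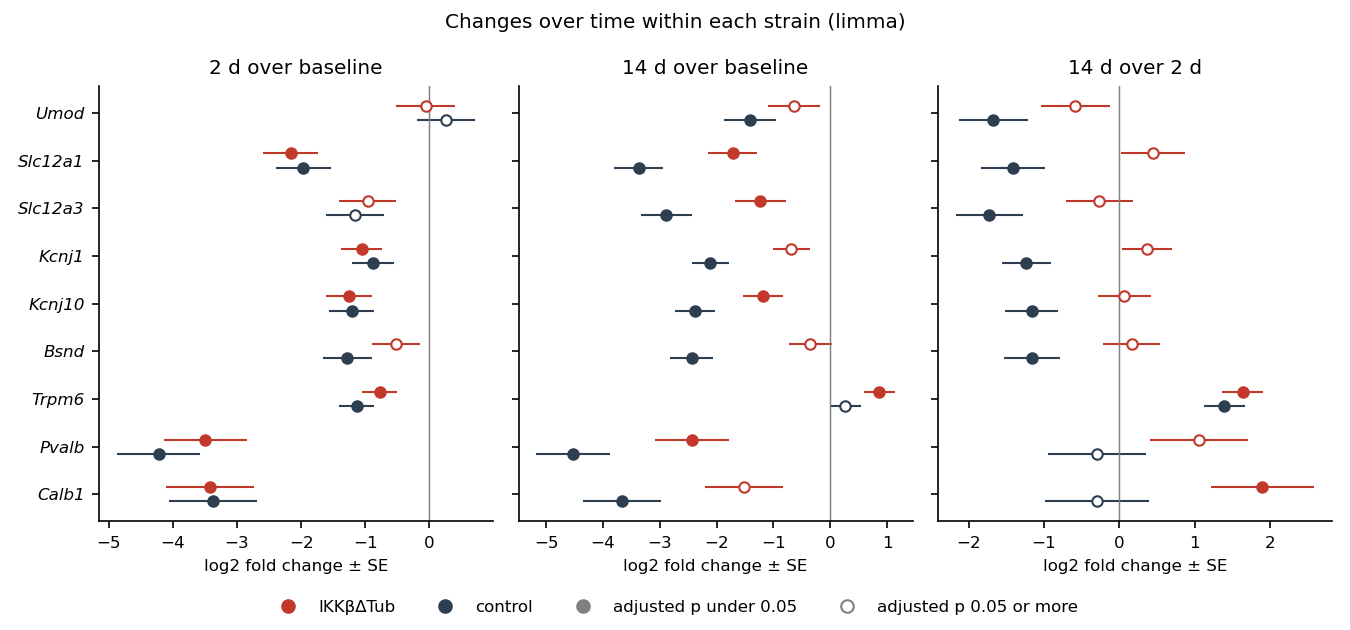
log2 fold change ± SE from limma for each gene at 2 d over baseline, 14 d over baseline and 14 d over 2 d, IKKβ∆Tub in red above control in dark blue, filled where the adjusted p was under 0.05. The control points for 14 d over baseline lie left of 0 and are filled for every gene but Trpm6, at 0.26.

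At 14 d Slc12a1 stood at 3.54, 11.8 and 3.14 in IKKβ∆Tub and at 1.39, 1.83 and 2.63 in controls. The control mean was 0.0993 times its baseline mean, the IKKβ∆Tub mean 0.358 times. The log2 fold change over baseline was -1.72 (SE 0.43, adjusted p = 0.00544) in IKKβ∆Tub and -3.37 (SE 0.43, adjusted p = 1.6e-05) in controls. Slc12a3 stood at 1.63, 10.3 and 3.02 in IKKβ∆Tub and at 1.11, 1.19 and 2.10 in controls, with log2 fold changes over baseline of -1.23 (SE 0.45, adjusted p = 0.0377) and -2.88 (SE 0.45, adjusted p = 8.02e-05). Replicate 2 of IKKβ∆Tub was within the range of its baseline group for Slc12a3, and for both genes the other 2 IKKβ∆Tub libraries lay below all baseline libraries.

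Kcnj1 stood at 1.34, 3.54 and 1.70 in IKKβ∆Tub at 14 d, and averaged 0.972 ± 0.290 in controls (SD, n = 3), where the highest library lay just below the lowest of IKKβ∆Tub. Bsnd stood at 0.379, 1.06 and 0.538 in IKKβ∆Tub and at 0.199, 0.132 and 0.305 in controls. Kcnj10 stood at 0.459, 1.61 and 0.442 in IKKβ∆Tub and at 0.258, 0.242 and 0.455 in controls. These channel genes fell in controls by 2.11, 2.44 and 2.38 on the log2 scale relative to baseline (adjusted p = 7.99e-05, 8.15e-05 and 6.23e-05). In IKKβ∆Tub only Kcnj10 was called (-1.19, SE 0.36, adjusted p = 0.0151), Kcnj1 and Bsnd having values of -0.69 (adjusted p = 0.103) and -0.35 (adjusted p = 0.481).

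Umod, which had not been called at 2 d, was lower at 14 d in controls. It stood at 16.7, 62.0 and 14.5 in IKKβ∆Tub and at 9.39, 19.6 and 24.5 in controls. The control libraries at 14 d lay below all control libraries at baseline and 2 d, and the log2 fold change was -1.41 (SE 0.46, adjusted p = 0.0175) over baseline and -1.67 (SE 0.46, adjusted p = 0.00990) over 2 d. In IKKβ∆Tub it was -0.64 (SE 0.46, adjusted p = 0.280) over baseline, and -1.31 (adjusted p = 0.00628) without replicate 2.

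Trpm6 was the only member whose level rose between 2 d and 14 d in both strains. It stood at 0.296, 0.486 and 0.410 in IKKβ∆Tub and at 0.365, 0.367 and 0.371 in controls at 14 d. All of these lay above all 2 d libraries, and the 3 control libraries also lay above all control baseline libraries. The log2 fold change of 14 d over 2 d was 1.64 (SE 0.27, adjusted p = 0.000339) in IKKβ∆Tub and 1.39 (SE 0.27, adjusted p = 0.00103) in controls, called under all 32 settings in each strain. Relative to baseline it was 0.86 (SE 0.27, adjusted p = 0.0198) in IKKβ∆Tub and 0.26 (SE 0.27, adjusted p = 0.442) in controls. The IKKβ∆Tub change from baseline was not called by edgeR (adjusted p = 0.128) or DESeq2 (adjusted p = 0.115), with Y-linked expression as a covariate (adjusted p = 0.146), or without replicate 2 at 14 d (adjusted p = 0.0668).

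Calb1 stood at 0.328, 6.61 and 2.04 in IKKβ∆Tub and at 0.690, 0.354 and 0.849 in controls at 14 d. The IKKβ∆Tub libraries spanned from below the 2 d values to within the baseline range, and the controls overlapped with their 2 d libraries. Over 2 d its log2 fold change was 1.90 (SE 0.69, adjusted p = 0.0422) in IKKβ∆Tub, a call that ended without replicate 2 (0.90, adjusted p = 0.230), and -0.30 (SE 0.69, adjusted p = 0.771) in controls. Over baseline it was -1.52 (SE 0.69, adjusted p = 0.0892) in IKKβ∆Tub and -3.67 (SE 0.69, adjusted p = 0.000411) in controls. Pvalb was counted at 0, 105 and 11 reads in IKKβ∆Tub and at 0, 1 and 3 reads in controls at 14 d, so replicate 2 of IKKβ∆Tub held nearly all reads found at that time.

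Comparing 14 d with 2 d, 6 of the 9 genes fell and 1 rose in controls, where 35.0% of all genes were called, 18.2% lower and 16.8% higher. The median was -1.17, beside 0.02 over all genes. Those that fell were Umod, Slc12a1, Slc12a3, Kcnj1, Kcnj10 and Bsnd, with log2 fold changes between -1.73 and -1.16. These calls rest on the 2 d control libraries of doubtful label, without which 1 control library is left, too few to count calls. In IKKβ∆Tub 2 rose and none fell, where 33.7% of all genes were called (14.1% rose and 19.6% fell). The median was 0.37, beside -0.04 over all genes. Without replicate 2, Umod (-1.25, adjusted p = 0.0134) and Slc12a3 (-1.01, adjusted p = 0.0173) fell in IKKβ∆Tub at 14 d over 2 d and only Trpm6 rose (1.48, adjusted p = 0.00194), while Slc12a1 had -0.16 in place of 0.45.

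The count of 5 genes called at 14 d over baseline in IKKβ∆Tub was 7 without replicate 2, all of them lower than at baseline, and 0 when only the libraries compared were fitted. Without replicate 2 the log2 fold change was -2.33 for Slc12a1, -1.97 for Slc12a3, -1.79 for Kcnj10, -3.57 for Pvalb, -2.52 for Calb1, -1.10 for Kcnj1 and -1.31 for Umod, all called, and -0.76 for Bsnd (adjusted p = 0.104). The count was 2 with edgeR and 3 with DESeq2, which called 37.9% and 41.4% of all genes.

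Because the members of a segment moved apart, their ratios within a library are described without a test, the pairs having been picked from the values. Umod over Slc12a1, per length, was 3.93, 4.85 and 3.78 in IKKβ∆Tub and 4.11, 4.19 and 3.89 in controls at baseline. It was 19.2, 13.3 and 22.7 in IKKβ∆Tub and 14.3, 23.2 and 20.5 in controls at 2 d. At 14 d it was 8.51, 9.50 and 8.36 in IKKβ∆Tub and 12.2, 19.3 and 16.8 in controls. The ratio of these 2 genes was thus higher at 2 d than at baseline in every library of both strains, and at 14 d it lay between baseline and 2 d in IKKβ∆Tub, where replicate 2 did not stand apart. The strains did not overlap in this ratio at 14 d.

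Trpm6 over Slc12a3, per length, was 0.0218, 0.0139 and 0.0138 in IKKβ∆Tub and 0.0228, 0.0191 and 0.0168 in controls at baseline, and 0.0176, 0.0224 and 0.0149 in IKKβ∆Tub and 0.0220, 0.0182 and 0.0184 in controls at 2 d. At 14 d it was 0.120, 0.0311 and 0.0899 in IKKβ∆Tub and 0.217, 0.204 and 0.117 in controls. The 2 d and baseline libraries overlapped in this ratio, and all 14 d libraries lay above all earlier ones.

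**Figure D3:**
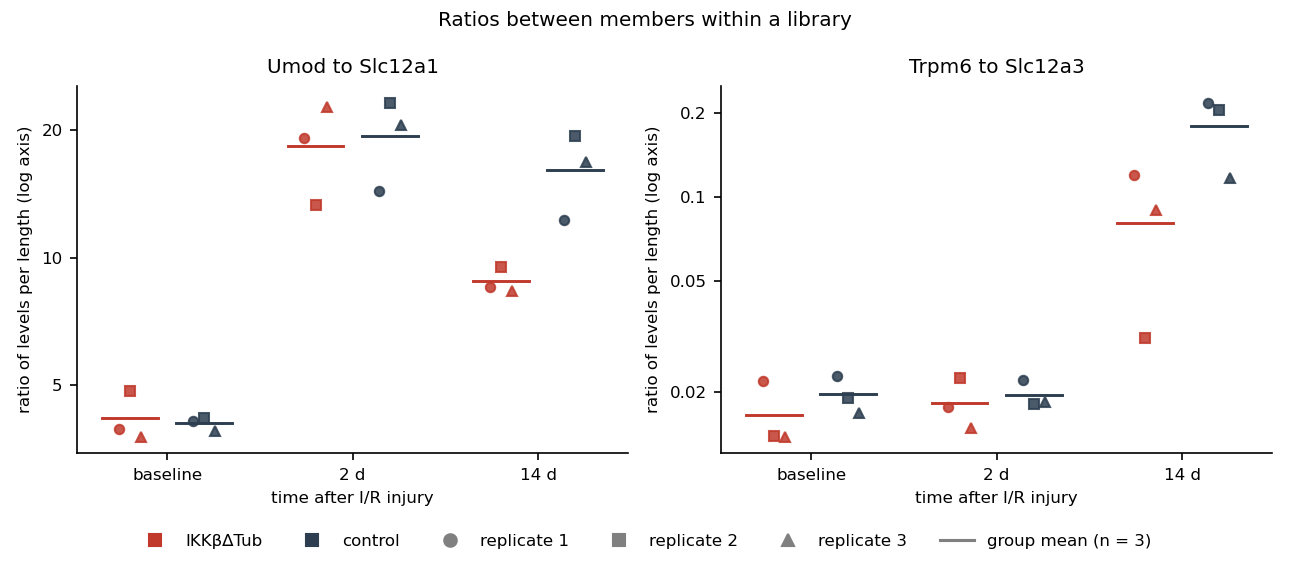
Ratio of Umod to Slc12a1 and of Trpm6 to Slc12a3 within each library (levels per kilobase, log axis), IKKβ∆Tub in red left of control in dark blue, with bars for group means. The Umod to Slc12a1 ratio lies between 13.3 and 23.2 in all 2 d libraries and between 3.78 and 4.85 in all baseline libraries.

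The comparison of the strains at each time addresses whether deletion of tubular IKKβ goes along with other levels of these transcripts. At baseline none of the 9 genes was called (none at an unadjusted p under 0.05, nor by edgeR or DESeq2, against 15.6%, 0.483% and 4.52% of all genes), where 0.0428% of all genes tested were called (0.0367% higher and 0.00612% lower in IKKβ∆Tub). All 9 had lower fitted values in IKKβ∆Tub, with a median log2 difference of -0.34 beside -0.09 over all genes, but the strains overlapped for each, whereas for 7.11% of all genes every IKKβ∆Tub library lay above every control library and for 14.9% below. With Y-linked expression as a covariate the values of Umod (0.07), Slc12a3 (0.14), Kcnj1 and Kcnj10 (0.22) were no longer below 0, and rescaling gave 0.07 for Kcnj10. IKKβ∆Tub replicate 1, without Y-linked expression and the shallowest baseline library, was above the other IKKβ∆Tub libraries for all 9 genes. Without it, Trpm6 was called, with a log2 difference of -0.95. The 95% interval of the baseline difference was -0.78 to 0.72 for Kcnj10 and -2.14 to 0.77 for Calb1.

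At 2 d none of the 9 was called (none at an unadjusted p under 0.05, nor by edgeR or DESeq2, against 6.76%, 0.00% and 0.00612% of all genes) and limma called 0.00% of all genes. The fitted differences ran from -0.73 for Calb1 to 0.23 for Bsnd, with a median of -0.17 beside 0.02 over all genes. For Umod, Kcnj1, Trpm6 and Calb1 every IKKβ∆Tub library lay below every control library, as was so for 6.30% of all genes, and none of the 9 lay above in all, as 6.31% of all genes did. Umod, for example, stood at 31.1, 43.6 and 37.5 in IKKβ∆Tub and at 58.1, 45.9 and 54.9 in controls, a log2 difference of -0.51 (95% interval -1.48 to 0.46). Against control replicate 3 alone, the library with the higher Ikbkb level, the difference in Bsnd was 0.81 and that in Calb1 -1.09, neither of them called.

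At 14 d the 9 fitted values were all higher in IKKβ∆Tub, with a median log2 difference of 1.39 beside -0.05 over all genes, but none was called by limma, against 0.367% of all genes tested, 0.0673% with a higher level and 0.300% with a lower level in IKKβ∆Tub. At an unadjusted p under 0.05 there were 7 of 9, edgeR called none and DESeq2 called 7, against 2281 of all 16342 genes, 0.0306% and 3.13% of all genes. Bsnd had the lowest p, with a log2 difference of 1.56 (SE 0.38, 95% interval 0.76 to 2.36, adjusted p = 0.0690). Slc12a1 had 1.43 (SE 0.43, adjusted p = 0.121), Slc12a3 1.39 (SE 0.45, adjusted p = 0.143), Kcnj10 1.16 (SE 0.36, adjusted p = 0.129) and Kcnj1 1.08 (SE 0.33, adjusted p = 0.122). Pvalb had 1.58 (95% interval 0.21 to 2.95) and Calb1 1.47 (0.01 to 2.92), while Umod had 0.58 (-0.39 to 1.55) and Trpm6 0.08 (-0.50 to 0.66). Pvalb had 0, 105 and 11 reads in IKKβ∆Tub and 0, 1 and 3 in controls, so its difference depends on replicate 2 and on the pseudocount. For Slc12a1, Kcnj1 and Bsnd every IKKβ∆Tub library lay above every control library, as was so for 4.44% of all genes, and none of the 9 lay below in all, as 9.07% of all genes did.

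With Y-linked expression as a covariate Trpm6 had -0.20, and all 3 IKKβ∆Tub libraries but 1 control library lacked Y-linked expression at 14 d. The differences were smaller without IKKβ∆Tub replicate 2. Without it the log2 difference was 1.15 for Bsnd, 0.82 for Slc12a1, 0.67 for Kcnj1, 0.66 for Slc12a3, 0.55 for Kcnj10, 0.47 for Calb1 and -0.09 for Umod, and none was called. Without replicate 1 in its place, 6 of the 9 were called, in a fit that kept replicate 2. The share of all genes called in that fit is not given here, so this count has no background to set it against. The mean of the 9 genes, on the log2 scale and relative to control baseline, was -2.31, -0.08 and -1.68 in the IKKβ∆Tub libraries and -2.72, -2.73 and -2.06 in the control libraries, so the strains overlapped.

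The change in the strain difference over time was not called for any of the 9 genes in any of the 3 interaction tests, in which 0.00% (2 d minus baseline), 0.116% (14 d minus baseline, 0.0734% of all genes with a value below 0) and 0.0306% (14 d minus 2 d) of all genes were called. At an unadjusted p under 0.05 there were 0, 7 and 6 of 9, edgeR called none in each, and DESeq2 called 0, 3 and 0. Over all 16342 genes there were 2451, 2841 and 1594 at an unadjusted p under 0.05, and edgeR called 2, 39 and 2. DESeq2 called 370 of 15060 (2.46%), 861 of 16011 (5.38%) and 100 of 16328 genes (0.612%) to which it gave an adjusted p. Bsnd again had the largest value relative to its error in the change from baseline to 14 d, 2.09 (SE 0.53, adjusted p = 0.0859). The smaller declines of IKKβ∆Tub at 14 d are thus not shown to differ from those of controls.

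**Figure D4:**
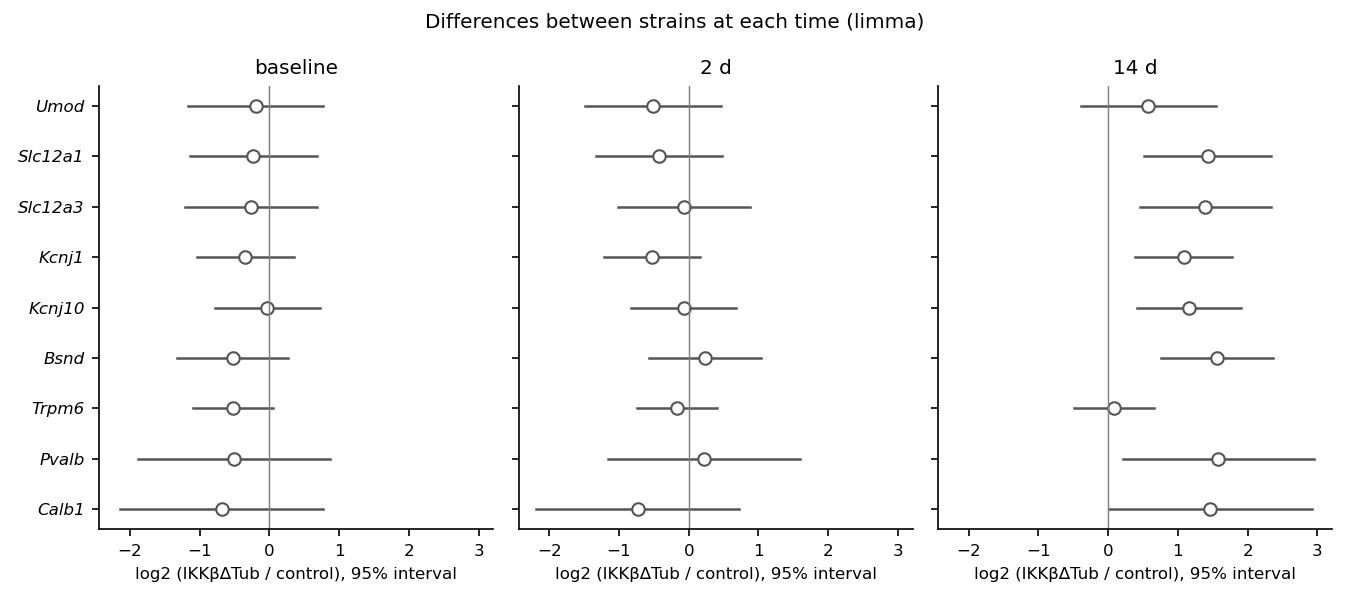
log2 difference between IKKβ∆Tub and control for each gene at baseline, 2 d and 14 d, with 95% intervals from limma, where open points mark an adjusted p of 0.05 or more. All points are open, and at 14 d the point of Trpm6 lies at 0.08 while that of Bsnd lies at 1.56.

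Markers of other cells also changed at 14 d over baseline, down for the proximal tubule and up for tubular injury and macrophages. All 10 proximal tubule genes on the list fell relative to baseline in both strains, and their summed level was 48.6, 128 and 60.1 in IKKβ∆Tub and 50.4, 42.6 and 38.7 in controls, with none at 0. Of 5 genes of tubular injury 4 rose in IKKβ∆Tub and 5 in controls, their sum being 10.4, 1.33 and 7.33 in IKKβ∆Tub and 18.4, 17.5 and 12.8 in controls. All 6 macrophage genes rose in both, with sums of 10.7, 1.99 and 9.03 in IKKβ∆Tub and 24.3, 20.7 and 17.0 in controls. IKKβ∆Tub replicate 2 was thus highest for the proximal tubule and lowest for injury and macrophage genes. Their part in the results on the 9 genes was not tested.

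Other TAL genes that were called over time all fell. Of 15 other TAL genes none rose in any comparison over time, 6 fell at 2 d and 8 at 14 d in IKKβ∆Tub and 8 and 15 in controls, relative to baseline. Their medians were -0.69 and -0.57 in IKKβ∆Tub and -1.07 and -1.65 in controls. Of all genes, 14.9% fell at 2 d and 11.2% at 14 d in IKKβ∆Tub, and 11.3% and 17.3% in controls. Egf, the epidermal growth factor precursor made by TAL and DCT, fell at both times in both strains. It stood at 35.1, 22.9 and 22.6 in IKKβ∆Tub and 51.0, 37.0 and 20.3 in controls at baseline, and at 1.43, 2.23 and 1.83 in IKKβ∆Tub and 3.29, 0.873 and 0.935 in controls at 2 d. At 14 d it stood at 1.54, 30.1 and 2.21 in IKKβ∆Tub and 0.321, 0.436 and 1.68 in controls, again with replicate 2 near baseline. Its log2 fold change at 14 d over baseline was -2.49 in IKKβ∆Tub (adjusted p = 0.0298) and -5.75 in controls (adjusted p = 5.93e-05), and -3.83 in IKKβ∆Tub without replicate 2 (adjusted p = 0.000181). Tmem207, a membrane protein gene, fell by 3.37 in IKKβ∆Tub and by 4.90 in controls. Ppp1r1a, a protein phosphatase inhibitor, fell by 1.11 in IKKβ∆Tub and by 3.12 in controls. Its 14 d libraries ranged from 0.336 to 1.91 in IKKβ∆Tub and from 0.194 to 0.396 in controls, so the strains overlapped.

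Of 8 other DCT genes 2 fell at 2 d in IKKβ∆Tub and 3 in controls, and at 14 d over baseline 2 rose and 2 fell in IKKβ∆Tub while 6 fell in controls. Since 28.3% of all genes rose at 14 d in IKKβ∆Tub, 2 of 8 is near the background share. Of all genes, 14.9% fell at 2 d and 11.2% at 14 d in IKKβ∆Tub, and 11.3% and 17.3% in controls. The DCT genes that rose at 14 d in IKKβ∆Tub were S100g, the calcium buffer calbindin-D9k, and Trpv5, the apical calcium channel. Trpv5 was named after its values were seen. S100g stood at 6.46, 12.2 and 18.6 in IKKβ∆Tub and 7.87, 2.65 and 4.11 in controls at 14 d, against 3.75, 7.13 and 6.39 in IKKβ∆Tub and 12.5, 9.18 and 8.92 in controls at baseline. Its log2 fold change over baseline was 1.03 in IKKβ∆Tub (adjusted p = 0.0411) and -1.19 in controls (adjusted p = 0.0163), and the strains overlapped at 14 d. Without IKKβ∆Tub replicate 2 S100g was not called (0.98, adjusted p = 0.0778). Trpv5 had 1.07 in IKKβ∆Tub (adjusted p = 0.00841) and 0.43 in controls (adjusted p = 0.221). Fxyd2, the gamma subunit of the sodium pump, fell by 1.02 in IKKβ∆Tub and by 2.15 in controls, and Kl, the coreceptor klotho, fell by 1.62 in IKKβ∆Tub and fell by 2.66 in controls. Slc8a1, the basolateral sodium-calcium exchanger, fell by 2.31 in controls and had -0.54 in IKKβ∆Tub (adjusted p = 0.569). Its 14 d libraries ranged from 0.0446 to 0.335 in IKKβ∆Tub and from 0.0232 to 0.112 in controls, so the strains overlapped.

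**Figure D5:**
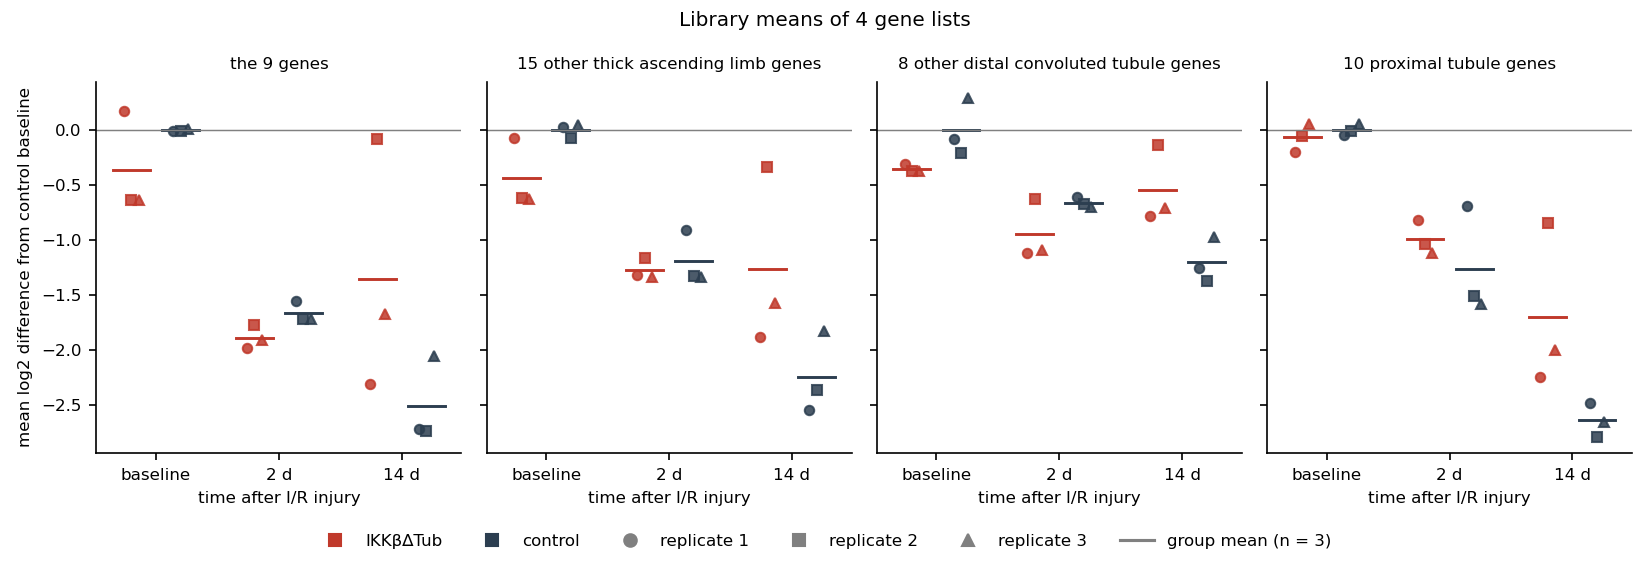
Mean log2 difference from control baseline over the 9 genes, 15 other TAL genes, 8 other DCT genes and 10 proximal tubule genes in each library, IKKβ∆Tub in red left of control in dark blue, with bars for group means. In the panel of the 9 genes IKKβ∆Tub replicate 2 at 14 d lies at -0.08, while the other 14 d libraries lie between -2.73 and -1.68.

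Of 12 regulators of the salt cotransporters, 8 fell and 1 rose at 2 d in IKKβ∆Tub and 4 fell and 1 rose in controls. Of all genes, 14.9% fell and 35.4% rose in IKKβ∆Tub, and 11.3% fell and 25.4% rose in controls. The regulator that rose in both was Oxsr1, a kinase that phosphorylates both cotransporters, named after its values were seen. Its log2 fold change was 0.36 in IKKβ∆Tub and 0.41 in controls. Klhl3, the adaptor that marks WNK kinases for degradation, stood at 0.0479, 0.131 and 0.0844 in IKKβ∆Tub and 0.103, 0.0983 and 0.0889 in controls at 2 d, against 0.421, 0.347 and 0.331 in IKKβ∆Tub and 0.370, 0.353 and 0.412 in controls at baseline. It fell by 2.10 in IKKβ∆Tub and by 1.91 in controls. By 14 d it had risen again over 2 d in IKKβ∆Tub (1.74, adjusted p = 0.00654), and in controls it had 0.45 (adjusted p = 0.458). The 14 d libraries ranged from 0.135 to 0.59 in IKKβ∆Tub and from 0.0751 to 0.227 in controls, so the strains overlapped. Sgk1, an aldosterone-induced kinase, fell at 14 d over baseline by 1.51 in IKKβ∆Tub and by 1.08 in controls, and Wnk1 fell by 1.35 in controls while having -0.55 in IKKβ∆Tub (adjusted p = 0.182). At 14 d Wnk1 ranged from 3.02 to 9.17 in IKKβ∆Tub and from 2.37 to 4.2 in controls, so the strains overlapped. Hsd11b2, which shields the mineralocorticoid receptor from glucocorticoids, fell by 1.34 in controls and had 0.19 in IKKβ∆Tub (adjusted p = 0.548). At baseline it already ranged lower in IKKβ∆Tub (1.90 to 2.31) than in controls (3.32 to 3.98), a difference not called (limma adjusted p = 0.156). At 14 d it ranged from 1.94 to 3.43 in IKKβ∆Tub and from 1.05 to 1.64 in controls. The fold changes of Hsd11b2 thus start from unlike levels.

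Of 9 distal nephron transcription factors and coactivators 8 were tested, and Pou3f3 was not analysed here. At 2 d 5 fell in each strain, and at 14 d over baseline 1 fell in IKKβ∆Tub and 6 in controls. Of all genes, 14.9% fell at 2 d and 11.2% at 14 d in IKKβ∆Tub, and 11.3% and 17.3% in controls. Esrrb and Esrrg, estrogen-related receptors of the distal nephron, fell at 2 d by 1.86 and 1.81 in IKKβ∆Tub and by 2.16 and 1.21 in controls. Ppargc1a, the mitochondrial coactivator that works with them, fell by 1.67 in IKKβ∆Tub and by 1.37 in controls at 2 d, and at 14 d over 2 d it rose by 1.54 in IKKβ∆Tub and by 0.71 in controls. Irx1 fell at 14 d over baseline by 1.65 in controls and had -0.64 in IKKβ∆Tub (adjusted p = 0.0963). Its baseline libraries ranged from 0.359 to 0.495 in IKKβ∆Tub and from 0.524 to 0.692 in controls. This baseline difference was not called (limma adjusted p = 0.425), and at 14 d the strains overlapped. None of the genes on these 4 lists was called between the strains at any time or in an interaction.

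Across the 18 libraries, genes whose pattern was most like that of Slc12a3 included Ppp1r1a, Phyhip, Pgam2 and Lrrc52, with a root mean square difference between 0.25 and 0.37 on the log2 scale after centring each gene. Those nearest to Slc12a1 were Cmah, Cyp2j11, Slc16a4, Ghr and Pik3c2g, at 0.35 to 0.42. Among the 9 genes Kcnj10 lay nearest to both, at 0.31 from Slc12a3 and 0.50 from Slc12a1. Umod lay at 0.97 from Slc12a1, farther than Slc12a3 (0.58), and Trpm6 lay at 1.34 from Slc12a3.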

How the data were processed

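Stranded poly(A) mRNA libraries from whole kidney pieces were sequenced paired-end, and the submitters' processing notes name Trim Galore 0.4, STAR 2.5.2b, featureCounts 1.5.2, StringTie 1.3.3b, FastQC 0.11, MultiQC 1.4, R 3.6.3 and DESeq2 1.26.0 with GRCm38. The deposited signal is the read count of a gene divided by the 90th percentile of the library, as normalized by the authors. Whole reads were recovered for 100% of values (within 0.001 of a read), and totals ran from 12306138 to 66317182 reads per library. More depth gives less counting error, which matters for Pvalb.

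The main test was limma 3.58.1 (R 4.3.3) on log2(value + 0.005), with genes at 0.005 or more in at least 3 libraries, an eBayes trend, all 18 libraries in 1 fit of group means, and Benjamini-Hochberg adjustment over 16342 genes with a threshold of 0.05. Fold changes on this scale understate low genes. Groups came from the labels. Alternatives were edgeR 4.0.16 and DESeq2 1.42.0 on recovered reads, other pseudocounts (0.05 and 0.001), other filters, rescaling, a replicate block, a Y-linked covariate and left-out libraries.

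The members and lists were chosen with earlier results of these data known. Beyond the 9 genes, the text names up to 4 genes a list by size of change among those called, plus the 5 nearest patterns to Slc12a1 and to Slc12a3. One gene that this rule picks is not reported here. Trpv5, Oxsr1 and Vmn1r32 were named after their values were seen. Columns with the authors' own comparisons were not used.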

Additional observations from a re-analysis of the deposited data

How the results depend on the processing

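No called change of the 9 genes turned its sign under another setting, while some uncalled differences did, such as Umod between the strains at 14 d (0.58, and -0.09 without IKKβ∆Tub replicate 2). Leaving out 1 library at a time gave 0 to 1 genes between the strains at baseline (1 without IKKβ∆Tub baseline replicate 1), 0 to 0 at 2 d and 0 to 6 at 14 d (6 without IKKβ∆Tub replicate 1 and 2 without replicate 3). It gave 4 to 7 for IKKβ∆Tub at 2 d over baseline, 2 to 7 at 14 d over baseline (3 without IKKβ∆Tub baseline replicate 2 or IKKβ∆Tub 14 d replicate 1) and 1 to 3 at 14 d over 2 d. In controls it gave 5 to 8, 7 to 8 and 3 to 7 (3 without control 14 d replicate 1, 4 without control 14 d replicate 2 or control 2 d replicate 1). For the interactions it gave 0 to 0 (2 d minus baseline), 0 to 4 (14 d minus baseline) and 0 to 1 (14 d minus 2 d). The share of all genes called in these fits is not given here. DESeq2 called 7 between the strains at 14 d, 3 in IKKβ∆Tub at 14 d over baseline and 3 in the interaction of 14 d minus baseline. For IKKβ∆Tub at 14 d over baseline edgeR called 2 and a fit of only the libraries compared 0. For IKKβ∆Tub at 14 d over 2 d the count of 2 was 1 with no filter, with no mean-variance trend, with only the libraries compared, with the Y-linked covariate and without control 2 d replicates 1 and 2. Without those control libraries, the lone control library at 2 d is assumed to vary like the other groups, so no counts are given for controls. The control calls that use 2 d thus rest partly on libraries of doubtful label.

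Same-numbered libraries of the strains at the same time did not deviate together (correlations from -0.348 to 0.17), so no pairing between the strains was seen. Pairing of same-numbered libraries over time within a strain was not checked. The replicate block gave 1 for IKKβ∆Tub at 14 d over 2 d in place of 2 (Calb1, adjusted p = 0.0515) and ended the call of Kcnj1 in controls at 2 d (adjusted p = 0.0641). The alternative without IKKβ∆Tub 14 d replicate 2 and both of those control libraries together was chosen after seeing the data.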

Other observations

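Segments next to the DCT were read from short marker lists. Of 4 collecting duct principal cell genes tested, 2 fell at 2 d over baseline in IKKβ∆Tub and 4 in controls, and at 14 d over baseline 0 were called in IKKβ∆Tub and 3 fell in controls. Of all genes, 14.9% fell at 2 d and 11.2% at 14 d in IKKβ∆Tub, and 11.3% and 17.3% in controls. Aqp2, the vasopressin-regulated water channel, fell by 1.61 at 2 d in IKKβ∆Tub and by 1.59 in controls on the log2 scale, and by 2.58 at 14 d in controls.

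Of 5 intercalated cell genes 3 fell at 2 d over baseline in each strain, where 14.9% of all genes fell in IKKβ∆Tub and 11.3% in controls. Slc4a1, the anion exchanger of acid-secreting cells, fell at 14 d over baseline by 1.70 in IKKβ∆Tub and by 5.00 in controls. Atp6v0d2, a subunit of the proton pump, rose at 14 d over baseline by 0.96 in IKKβ∆Tub and by 0.86 in controls, and in all 2 of the 5 genes rose in IKKβ∆Tub and 1 in controls. With so few genes these counts do not stand apart from the 28.3% and 32.5% of all genes that rose.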
